A study of Homo sapiens with 6 samples.

Results

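The expression of 10 Hippo pathway genes was followed in HaCaT, a human keratinocyte line that grows without limit in culture, after repeated mild heat. They were the rows of the deposited count table with the symbols YAP1, WWTR1, TEAD1, TEAD4, LATS1, LATS2, AMOTL1, AMOTL2, AJUBA and AXL, and all 10 were found among its 15379 symbols. RNA was sequenced from cells held at 41C for 1 hour on each of 3 days, and from control cells given the same schedule at 37C, with 3 libraries in each group. The labels name no other agent and no genotype for either group, and both groups are the same line, so every value comes from 1 genetic background. The sources used here do not give the time between the last exposure and RNA extraction, nor do they say that replicates were separate cultures. The p-values therefore refer to the spread among these libraries alone, and that spread may be technical.

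The Hippo pathway is a kinase relay that restrains growth. The upstream kinases MST1 and MST2 activate LATS1 and LATS2, which phosphorylate the coactivators YAP and TAZ so that these are held in the cytoplasm or degraded. When the relay is quiet, YAP and TAZ enter the nucleus, bind the TEAD family of DNA-binding factors and switch on genes of growth, adhesion and the cytoskeleton. In epidermis the pathway is known for its role in basal keratinocytes, where YAP activity follows cell density and tension. Its regulation is largely by phosphorylation and location of the proteins, which transcript counts do not measure.

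TEAD factors recognise the letters GGAATG, or CATTCC on the other strand, and several genes of the pathway are themselves targets of YAP and TEAD. RefSeq promoter windows (GRCh38.p14, 250 bases before to 50 bases after a gene start) were found for 8 of the 10 genes, 13 windows in all, and 5 windows of 5 genes held the motif on either strand. Of all 35116 windows of this length 14.03% held it. The window that holds it is shown for the gene that passed the test, AXL, for the next by p-value, AMOTL2, for the coactivator YAP1, and for LATS2, whose log2 change had the opposite sign to those of the other 9. Capitals mark the motif as it reads 5′ to 3′ along the gene. Its first base lay at -212 in AXL, -69 in AMOTL2, -162 in YAP1 and 9 in LATS2, with the gene start as base 0. The windows shown for AXL and AMOTL2 belong to starts inside these genes, and the windows at their outer starts held no match. A match in such a window is a description of letters and does not show binding.
AXL, chr19:41226505-41226804, plus strand: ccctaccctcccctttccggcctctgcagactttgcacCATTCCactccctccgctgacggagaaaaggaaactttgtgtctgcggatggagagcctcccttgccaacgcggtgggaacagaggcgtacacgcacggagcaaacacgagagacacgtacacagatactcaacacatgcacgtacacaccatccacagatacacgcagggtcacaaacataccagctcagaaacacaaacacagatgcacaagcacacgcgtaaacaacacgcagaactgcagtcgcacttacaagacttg
AMOTL2, chr3:134374398-134374697, minus strand: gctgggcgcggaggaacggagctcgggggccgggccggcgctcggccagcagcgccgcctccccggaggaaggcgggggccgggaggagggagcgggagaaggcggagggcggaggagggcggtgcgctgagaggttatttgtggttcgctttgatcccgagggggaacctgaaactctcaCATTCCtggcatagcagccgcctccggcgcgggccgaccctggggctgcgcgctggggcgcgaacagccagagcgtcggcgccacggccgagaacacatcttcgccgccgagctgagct
YAP1, chr11:102110197-102110496, plus strand: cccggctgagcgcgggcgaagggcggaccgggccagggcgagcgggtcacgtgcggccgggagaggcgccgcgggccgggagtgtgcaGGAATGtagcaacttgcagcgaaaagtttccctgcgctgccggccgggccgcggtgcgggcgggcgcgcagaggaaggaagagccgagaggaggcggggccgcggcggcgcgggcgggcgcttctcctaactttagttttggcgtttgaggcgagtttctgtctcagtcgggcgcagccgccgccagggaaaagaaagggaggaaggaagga
LATS2, chr13:21061537-21061836, minus strand: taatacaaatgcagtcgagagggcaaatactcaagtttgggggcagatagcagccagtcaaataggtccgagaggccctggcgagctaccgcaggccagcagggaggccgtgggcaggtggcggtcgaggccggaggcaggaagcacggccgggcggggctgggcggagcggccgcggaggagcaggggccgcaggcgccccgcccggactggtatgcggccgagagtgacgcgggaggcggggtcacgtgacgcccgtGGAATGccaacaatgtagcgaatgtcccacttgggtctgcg

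After daily heat, 1 of the 10 genes passed the test across all genes. AXL, a receptor tyrosine kinase and known YAP target, was higher at 41C. The transcripts of AMOTL2, WWTR1 and AMOTL1 had the next smallest p-values, with group means 1.11 to 1.147 times as high at 41C and groups that did not overlap, but did not pass. The other 6, among them YAP1, both TEAD genes and both LATS kinases, had overlapping groups. No gene of the 10 was lower at 41C by the test. Over all 12056 genes tested, 1.09% passed in either direction and 0.821% passed as higher (edgeR quasi-likelihood test, Benjamini-Hochberg adjusted p under 0.05). A single gene of 10 is too small a count to set the list apart from that share. Of the 10 genes 9 had a positive log2 change, against 50.9% of all genes, and their median log2 change was 0.15, against 0.00 over all genes. Groups did not overlap, with 41C higher, in 4 of the 10 and in 11.2% of all genes, while 0 of the 10 and 8.84% of all genes had 41C lower. The 10 genes were chosen with earlier results of these data known, so these shares describe the list and do not test it.

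The 6 libraries held 19659112 to 20856144 counts each, and libraries correlated at 0.992 to 0.995 within a group and at 0.992 to 0.994 between groups on the log2 CPM scale. The 37C replicate 3 library stood apart in its relation to gene length. The Spearman correlation across genes between a gene's length and a library's deviation from the mean of all libraries was -0.42 in this library, against -0.04 to 0.22 in the other 5. Of 6 keratinocyte markers all were expressed. They summed to 6395 to 6673 CPM at 41C and 5357 to 6003 CPM at 37C. All 6 had a positive log2 change, against 50.9% of all genes, with a median of 0.20. In 5 of the 6 the groups did not overlap, with 41C higher, against 11.2% of all genes. By the test 2 of the 6 rose at 41C. These were KRT14, a basal keratin, and ITGB4, an integrin of hemidesmosomes, at log2 changes of 0.22 ± 0.05 for KRT14 and 0.25 ± 0.04 for ITGB4 (adjusted p = 0.0427 and 0.00823 in edgeR). The call of KRT14 ended with each library left out except 37C replicate 3 (adjusted p = 0.0815 to 0.345), with upper-quartile scaling (0.0877) and with limma on log2(FPKM + 1) or log2(FPKM + 0.1) (0.141 and 0.127). That of ITGB4 ended without 41C replicate 2 (0.161), without 37C replicate 2 (0.145) and in the same limma fits (0.0831 and 0.0709). In the same libraries melanocyte markers summed to 5.09 to 6.21 CPM at 41C and 4.91 to 5.06 CPM at 37C, fibroblast markers to 15.9 to 18.004 CPM at 41C and 13.9 to 16.7 CPM at 37C, and immune and endothelial markers to 17.0 to 21.6 CPM at 41C and 19.4 to 27.9 CPM at 37C. Of these 18 markers of other cell types 3 had no row (MLANA, TYR and COL1A2), and the melanocyte genes DCT and TYRP1 and the leukocyte gene PTPRC had at most 0.10 CPM in any library. Others were detected in every library. The melanocyte gene MITF had 3.25 to 3.60 CPM at 41C and 2.38 to 3.06 CPM at 37C. PMEL had 1.61 to 2.96 CPM at 41C and 1.81 to 2.53 CPM at 37C. The fibroblast gene COL3A1 had 12.6 to 14.8 CPM at 41C and 10.1 to 13.1 CPM at 37C. Most of the immune and endothelial sum came from CDH5, at 16.03 to 20.9 CPM at 41C and 18.5 to 26.6 CPM at 37C. Whether the higher keratinocyte markers bear on the values below was not tested. All 6 libraries are of the line HaCaT. In such bulk samples a change in the cells that express a gene and a change in RNA per cell cannot be told apart. HSPA1A, which encodes an inducible heat shock protein, rose 1.23-fold (log2 change 0.30 ± 0.05, edgeR adjusted p = 0.00498). This call ended without 41C replicate 2 (adjusted p = 0.0666), without 37C replicate 2 (0.0843) and with limma on log2(FPKM + 1) (0.0523), and since HSPA1A has a near-identical copy its own value is uncertain.

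**Figure D1:**
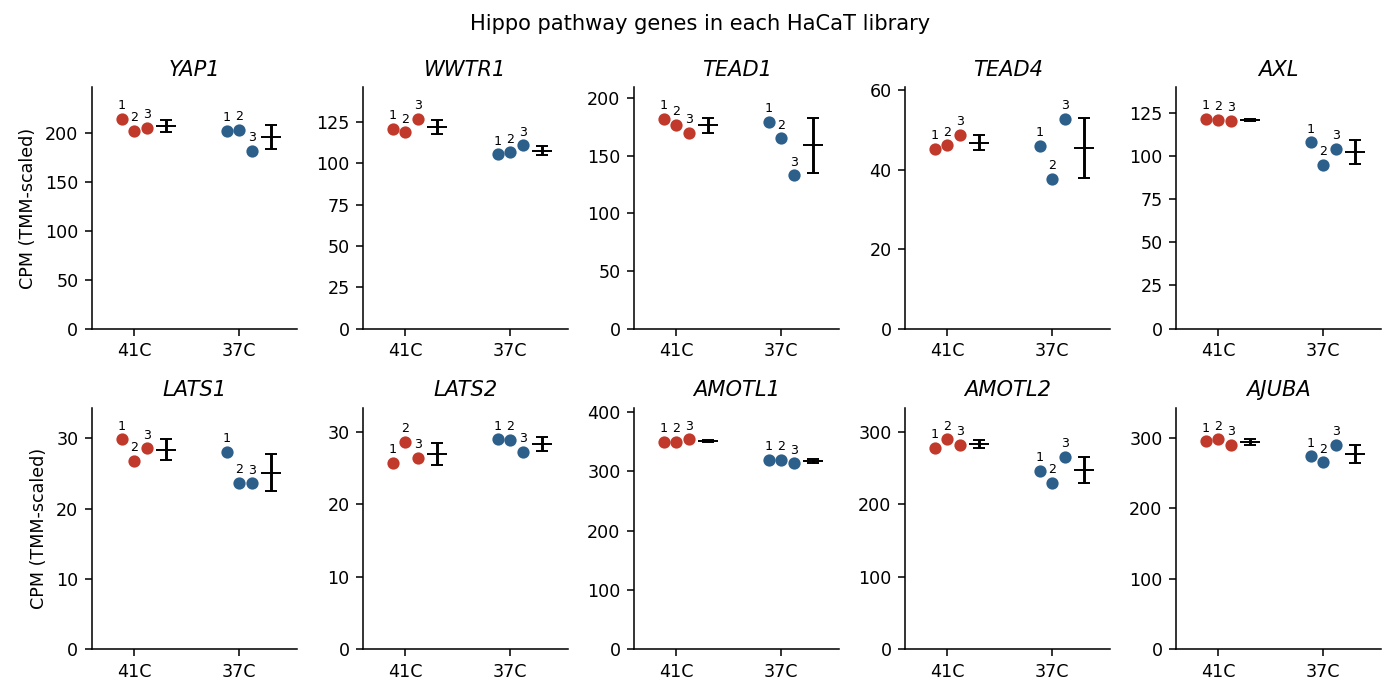
Expression of each of the 10 genes in every library, in CPM scaled by TMM factors, at 41C (red) and 37C (blue). Numbers are replicate numbers, bars are the mean and SD of 3 libraries, and each axis starts at 0. The 3 libraries at 41C lie above the 3 at 37C for WWTR1, AXL, AMOTL1 and AMOTL2.

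YAP1 and WWTR1 encode the paired coactivators YAP and TAZ, through which the pathway reaches its target genes. YAP1 (chromosome 11, 102110461 to 102233423, plus strand; GENCODE 29 on GRCh38) had 214.9, 202.5 and 205.6 CPM in 41C replicates 1, 2 and 3, against 202.6, 203.7 and 182.3 CPM in 37C replicates 1, 2 and 3. The groups overlapped, and the lowest value was that of 37C replicate 3. The log2 change was 0.08 ± 0.05 (SE; edgeR adjusted p = 0.508), with a 95% interval of -0.03 to 0.19, and leaving out 37C replicate 3 gave 0.03. An increase of more than 1.14-fold or a decrease to less than 0.983 of the 37C level therefore lay outside the interval of the fit on all 6 libraries for YAP1.

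WWTR1 (chromosome 3, 149517235 to 149736714, minus strand) had 120.7, 118.8 and 127.0 CPM at 41C, against 105.5, 106.6 and 110.9 CPM at 37C. All 3 libraries at 41C lay above all 3 at 37C, with group means of 122.2 ± 4.28 CPM at 41C and 107.7 ± 2.87 CPM at 37C (SD, n = 3 each). The difference was 1.13-fold and did not pass (log2 change 0.18 ± 0.05, edgeR adjusted p = 0.0954). It passed without 37C replicate 3 (log2 change 0.20, adjusted p = 0.00860), a fit that called 3.97% of all genes higher. It did not pass with any other single library left out (edgeR adjusted p = 0.189 to 0.414).

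Per length, TAZ mRNA was the less abundant of the pair. The ratio of WWTR1 to YAP1 in FPKM (counts per kilobase of gene and per 1000000 counts) was 0.602, 0.628 and 0.662 in the 41C libraries, and 0.558, 0.561 and 0.652 in those at 37C. WWTR1 thus made up 38.7% ± 1.13 of the pair at 41C and 37.1% ± 2.08 at 37C (SD, n = 3 each). The highest 37C ratio, in replicate 3, lay above 2 of the 3 ratios at 41C. The shift of 0.10 on the log2 scale was not beyond the spread (exact two-sided permutation p = 0.3, adjusted p = 0.6 over 4 pairs of paralogs; the smallest p that 3 against 3 libraries can give is 0.1). No ratio of the 4 pairs could therefore pass 0.05 in this permutation test.

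TEAD1 and TEAD4 encode DNA-binding partners of YAP and TAZ. TEAD1 (chromosome 11, 12674591 to 12944483, plus strand) had 181.9, 176.8 and 169.5 CPM at 41C, against 179.5, 164.9 and 132.8 CPM at 37C. The SD was 6.21 CPM at 41C and 23.9 CPM at 37C, a coefficient of variation of 3.53% at 41C and 15.0% at 37C, and the groups overlapped. The log2 change of TEAD1 was 0.15 ± 0.10 (edgeR adjusted p = 0.598). Without 37C replicate 3 it was 0.03, and without 37C replicate 1 it was 0.24 (adjusted p = 0.746 and 0.121).

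TEAD4 (chromosome 12, 2959330 to 3040673, plus strand) varied among the 37C libraries in the other direction. It had 45.2, 46.1 and 48.8 CPM at 41C, against 45.9, 37.7 and 52.8 CPM at 37C, so that 37C replicate 3 was the lowest library for TEAD1 and the highest for TEAD4. The log2 change was 0.04 ± 0.10 (edgeR adjusted p = 0.917), and leaving out 37C replicate 2 gave -0.08 while leaving out 37C replicate 3 gave 0.16. The 2 genes also differ in length in the deposited table, with 9417 bases for TEAD1, longer than 89.6% of the genes tested, and 1723 bases for TEAD4, longer than 12.7%. With the length trend of each library removed, the log2 change of TEAD1 was 0.12 ± 0.06 and that of TEAD4 0.09 ± 0.09 (edgeR adjusted p = 0.432 and 0.720).

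Per length TEAD4 was the most abundant member of the TEAD family in 6 of 6 libraries. It took 38.2% ± 1.18 of the summed FPKM of TEAD1 to TEAD4 at 41C and 39.2% ± 3.92 at 37C (SD, n = 3 each). TEAD1 took 26.4% ± 1.16 at 41C and 25.4% ± 4.69 at 37C, TEAD3 25.0% ± 0.462 at 41C and 25.1% ± 1.58 at 37C, and TEAD2 10.4% ± 0.425 at 41C and 10.3% ± 0.0744 at 37C. The shares of TEAD1 and TEAD3 overlapped between libraries at both temperatures. The ratio of TEAD4 to TEAD1 was 1.36, 1.43 and 1.57 at 41C, all within the range of the 1.40, 1.25 and 2.17 at 37C (exact permutation p = 0.9, adjusted p = 0.9). Its mean log2 difference of -0.11 became 0.13 without 37C replicate 3. These shares rest on the length the authors gave TEAD4, beside 1690 bases for its longest GENCODE 29 transcript and 2272 for its merged exons.

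**Figure D2:**
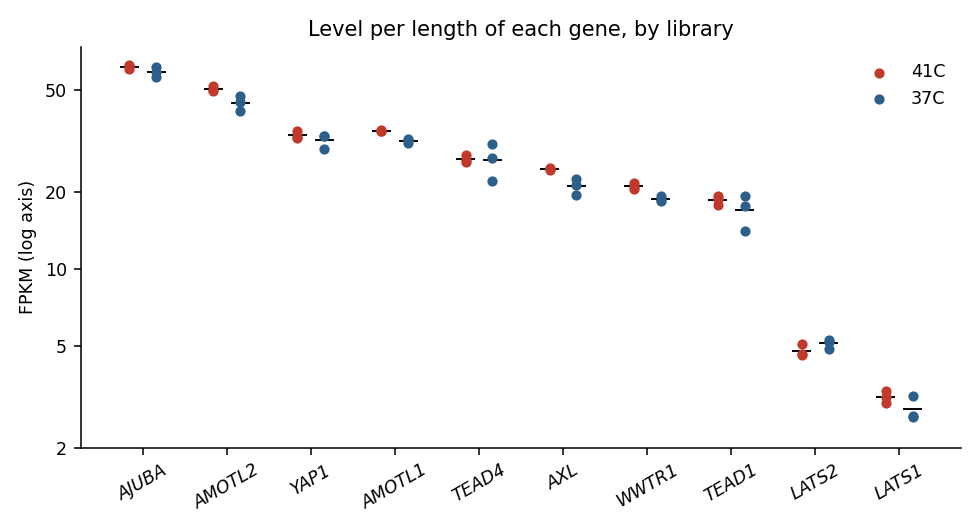
Level per length of each gene in FPKM (log axis) in every library at 41C (red) and 37C (blue), in the order of the 37C means, which short bars mark. AJUBA is highest and the 2 LATS kinases are lowest, and the 37C points of TEAD1 and TEAD4 spread more than their 41C points.

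In the order of levels per length, the transcripts of the LATS kinases stood well below those of YAP1 and WWTR1, whose products they act on. At 37C the means ran from 58.8 FPKM for AJUBA through 44.5 for AMOTL2, 31.9 for YAP1, 31.7 for AMOTL1, 26.6 for TEAD4, 21.1 for AXL, 18.7 for WWTR1 and 17.0 for TEAD1 to 5.10 for LATS2 and 2.83 for LATS1. At 41C the corresponding means were 61.8, 50.4, 33.3, 34.6, 26.9, 24.6, 21.0, 18.6, 4.78 and 3.16 FPKM. Among neighbours in this order, YAP1 and AMOTL1 overlapped at both temperatures, and their order is not beyond the spread. TEAD4 and AXL overlapped at 37C but not at 41C, with TEAD4 above AXL in 6 of 6 libraries, and so did WWTR1 and TEAD1, with WWTR1 above TEAD1 in 5 of 6. The other neighbours did not overlap within either temperature. AJUBA lay above 90.3% of the genes tested at 37C, whereas LATS1 lay above 26.6%.

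LATS1 and LATS2 encode the kinases that inactivate YAP and TAZ, and LATS2 is in turn a YAP target. LATS1 (chromosome 6, 149658153 to 149718256, minus strand) had 29.85, 26.8 and 28.6 CPM at 41C, against 28.1, 23.6 and 23.6 CPM at 37C. The groups overlapped through 37C replicate 1, and the log2 change of 0.18 ± 0.09 did not pass (edgeR adjusted p = 0.375). The log2 change of LATS1 was 0.26 without that library.

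LATS2 (chromosome 13, 20973032 to 21061547, minus strand) had 25.7, 28.6 and 26.4 CPM at 41C, against 28.97, 28.9 and 27.2 CPM at 37C. It had the only negative log2 change of the 10 (-0.07 ± 0.08, edgeR adjusted p = 0.725, 95% interval -0.23 to 0.08), and the sign was the same in each of 17 alternative fits, with values of -0.12 to -0.04. The ratio of LATS2 to LATS1 per length was 1.38, 1.71 and 1.48 at 41C, against 1.65, 1.95 and 1.84 at 37C. Only 41C replicate 2 reached into the 37C range, and the log2 difference of -0.26 had an exact permutation p of 0.2 (adjusted p = 0.6).

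AMOTL1 and AMOTL2 encode angiomotin-like scaffolds that bind YAP at junctions and keep it from the nucleus, and AMOTL2 is a YAP target as well. AMOTL1 (chromosome 11, 94706431 to 94876753, plus strand) had 350.2, 349.6 and 354.0 CPM at 41C, against 319.1, 319.2 and 313.7 CPM at 37C. The coefficients of variation were 0.669% at 41C and 1.00% at 37C, and the groups did not overlap. The 1.11-fold difference in AMOTL1 did not pass (log2 change 0.15 ± 0.04, edgeR adjusted p = 0.0922), and it passed without 37C replicate 3 (adjusted p = 0.0296). It did not pass with any other single library left out (edgeR adjusted p = 0.132 to 0.384).

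AMOTL2 (chromosome 3, 134355874 to 134375479, minus strand), whose inner start window is printed above, had 277.8, 289.2 and 281.3 CPM at 41C, against 245.9, 228.9 and 264.9 CPM at 37C. The groups again did not overlap, with means of 282.8 ± 5.85 CPM at 41C and 246.6 ± 18.04 CPM at 37C (SD, n = 3 each), and the 1.147-fold difference did not pass (log2 change 0.20 ± 0.05, edgeR adjusted p = 0.0806). It passed without 37C replicate 3 (log2 change 0.25, adjusted p = 0.000209), and without 37C replicate 2 the log2 change was 0.14 (adjusted p = 0.462). The ratio of AMOTL2 to AMOTL1 per length was 1.43, 1.495 and 1.44 at 41C and 1.39, 1.30 and 1.53 at 37C, and these groups overlapped, with no shift between the scaffolds beyond the spread (exact permutation p = 0.5, adjusted p = 0.667). The founding family member AMOT took 1.53% ± 0.114 of the summed FPKM of the 3 motins at 41C and 2.08% ± 0.230 at 37C (SD, n = 3 each).

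AJUBA (chromosome 14, 22971174 to 22982642, minus strand) encodes a LIM-domain scaffold of junctions that binds and restrains LATS kinases. It had 294.9, 297.7 and 289.6 CPM at 41C, against 273.7, 265.2 and 290.2 CPM at 37C. Only 37C replicate 3 reached the 41C values, and the log2 change of 0.09 ± 0.04 did not pass (edgeR adjusted p = 0.392). It was 0.06 when 37C replicate 2 was left out.

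AXL (chromosome 19, 41219203 to 41261766, plus strand) encodes a cell surface receptor tyrosine kinase and was the one gene past the threshold. It had 121.4, 120.6 and 120.2 CPM at 41C, against 107.8, 94.6 and 103.8 CPM at 37C. The 41C libraries were nearly equal, with a coefficient of variation of 0.484%, and all lay above the 37C libraries, which varied by 6.65%. The coefficient at 41C rests on 3 libraries of 2387 to 2529 AXL counts, and whether the spread differed between temperatures was not tested. AXL rose 1.18-fold (log2 change 0.24 ± 0.05, adjusted p = 0.0427 in edgeR). The log2 change was 0.19 to 0.28 in 17 alternative fits, all positive, and 10 of them passed. The call ended without 37C replicate 2 (adjusted p = 0.332), without 41C replicates 1, 2 or 3 (0.203, 0.245 and 0.140), with upper-quartile scaling (0.0636) and with limma on log2(FPKM + 1) or log2(FPKM + 0.1) (0.146 and 0.138).

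None of the 4 ligands and sister receptors of AXL passed the test. Its ligand GAS6 had 283.6, 286.3 and 281.6 CPM at 41C and 274.2, 288.4 and 300.7 CPM at 37C (log2 change -0.02 ± 0.04, edgeR adjusted p = 0.895). The sister receptor TYRO3 had a log2 change of 0.08 ± 0.09, which was 0.04 when 37C replicate 2 and 0.13 when 37C replicate 3 was left out, while MERTK, at under 1 CPM in each library, and the second ligand PROS1, at 2.43 to 3.997 CPM, had log2 changes of 0.00 ± 0.43 and -0.02 ± 0.21. The adjusted p-values of the 4 genes were 0.753 to 0.997 in edgeR, and their median log2 change was -0.01.

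**Figure D3:**
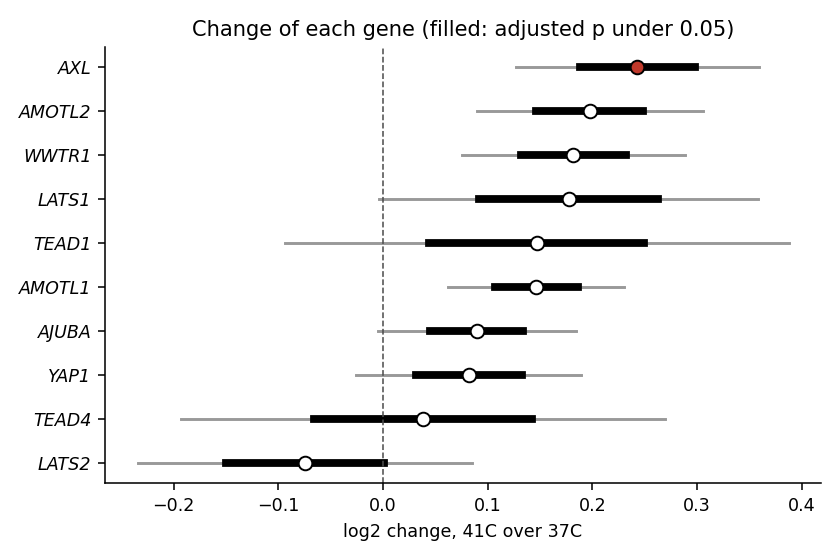
Log2 change of each gene at 41C over 37C (points) with its SE (thick bars) and 95% interval (thin bars) from the edgeR fit on 3 libraries per group. AXL, filled, is the gene past the adjusted p threshold of 0.05, and LATS2 alone lies below 0.

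Since the deviations of the libraries followed gene length to different degrees, a further fit removed each library's trend on length. Of the 10 genes 9 are longer than the median tested gene of 4038 bases. With the correction the median log2 change of the 10 genes was 0.12, against 0.01 over all genes, and the same 9 were positive. AXL still passed (log2 change 0.24 ± 0.06, edgeR adjusted p = 0.0476), and AMOTL2, WWTR1 and AMOTL1 had adjusted p-values of 0.155, 0.173 and 0.295.

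Other genes of the pathway were examined from lists of known members, beside which the shares of all genes given above apply. These lists too were chosen with earlier results of these data known, so their counts are descriptive. Among 16 core kinases and their activators none passed in either direction. The log2 change was above 0 in 15, with a median of 0.09, and 3 were higher and 0 lower at an unadjusted p under 0.05, against 7.58% and 6.12% of all genes. In 8 of the 16 the 41C libraries lay above those at 37C. WWC3, of the KIBRA family of upstream scaffolds, had 27.6, 28.8 and 31.4 CPM at 41C against 24.5, 23.7 and 26.2 CPM at 37C (log2 change 0.24 ± 0.08, edgeR adjusted p = 0.180). The kinase MAP4K4, which can activate LATS, had log2 change 0.12 ± 0.05 (adjusted p = 0.257 in edgeR), and WWC2 and the kinase TAOK2 had 0.16 ± 0.07 and 0.12 ± 0.06. Leaving out 37C replicate 3 gave 0.11 for WWC2, and leaving out 37C replicate 1 gave 0.07 for TAOK2.

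Of 15 tested TEAD partners and cytoplasmic regulators, out of 16 listed, none passed. Of the 15, 11 were positive, the median was 0.06, and 2 were higher and 1 lower at an unadjusted p under 0.05, against 7.58% and 6.12% of all genes. In 3 of the 15 the 41C libraries lay above those at 37C, and in 0 they lay below. PTPN14, a phosphatase that binds YAP and also stands in the list of targets, had 202.0, 199.1 and 199.7 CPM at 41C against 181.3, 180.7 and 175.9 CPM at 37C. Its groups did not overlap and it had the smallest p-value of this list (log2 change 0.16 ± 0.04, edgeR adjusted p = 0.0894). SLMAP, a STRIPAK component, had a log2 change of 0.16 ± 0.07, and 0.08 when 37C replicate 3 was left out. On the negative side AMOT had a log2 change of -0.27 ± 0.11, with 11.2, 10.7 and 9.77 CPM at 41C against 11.2, 13.5 and 13.6 CPM at 37C, and VGLL1, a TEAD cofactor, -0.24 ± 0.13 (edgeR adjusted p = 0.293 and 0.427). For VGLL1 leaving out 37C replicate 2 gave -0.12 and leaving out 41C replicate 1 gave -0.15.

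Among 19 target genes of YAP and TAZ, not counting members of the 10, none passed over all genes. The log2 change was above 0 in 16, with a median of 0.13, and 9 were higher and 1 lower at an unadjusted p under 0.05, against 7.58% and 6.12% of all genes. In 8 of the 19 the 41C libraries lay above those at 37C, and in 0 they lay below, against 11.2% and 8.84% of all genes. ANKRD1, a muscle and injury ankyrin-repeat protein widely used as a YAP readout, had 7.63, 6.94 and 9.12 CPM at 41C against 5.97, 5.46 and 5.06 CPM at 37C. This 1.43-fold difference was the largest of the list and rested on 100 to 181 counts per library (log2 change 0.52 ± 0.14, edgeR adjusted p = 0.0927).

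The matricellular genes CCN1 and CCN2 are the other common readouts of YAP. CCN1 had 195.2, 208.5 and 204.7 CPM at 41C against 178.6, 150.4 and 186.5 CPM at 37C (log2 change 0.24 ± 0.07, edgeR adjusted p = 0.154). CCN1 passed in the fit that left out 37C replicate 3 (adjusted p = 0.00166), while leaving out 37C replicate 2 gave a log2 change of 0.15 (adjusted p = 0.451). CCN2 gave few counts in these cells, with 2.11, 2.77 and 2.52 CPM at 41C against 2.16, 1.77 and 2.03 CPM at 37C, and its groups overlapped (0.31 ± 0.22, edgeR adjusted p = 0.570). The target genes ASAP1, a regulator of small GTPases, and TGFB2, a growth factor, had log2 changes of 0.19 ± 0.05 and 0.23 ± 0.07 with groups that did not overlap (edgeR adjusted p = 0.0972 and 0.124). IGFBP3, CCDC80 and NUAK2 were the 3 with negative log2 changes, at -0.13, -0.18 and -0.20, and were named after their values were seen.

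**Figure D4:**
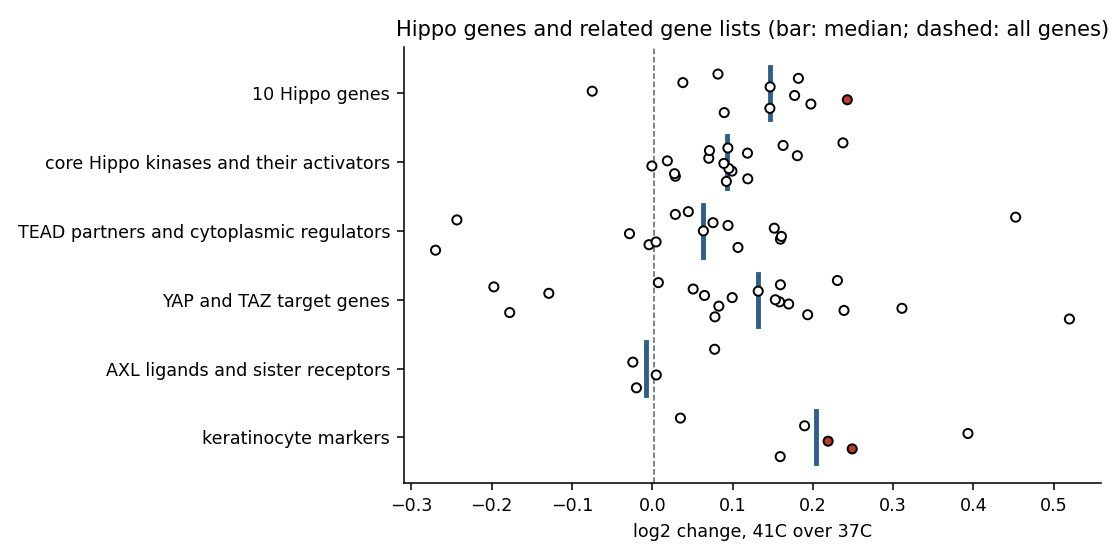
Log2 change at 41C over 37C of each tested gene in the 10 Hippo genes, 4 related lists and 6 keratinocyte markers. Blue bars are list medians, the dashed line is the median of all genes, and filled points have an adjusted p under 0.05, which are AXL, KRT14 and ITGB4.

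The way single libraries moved these values was uneven over the 10 genes. AMOTL1 had log2 changes of 0.14 to 0.15 whichever library was left out, and AXL of 0.19 to 0.28. TEAD1 ran from 0.03 to 0.24 and TEAD4 from -0.08 to 0.16. Leaving out 37C replicate 3 gave 4 of the 10 genes past the threshold, AXL, AMOTL2, WWTR1 and AMOTL1, against 3.97% of all genes called higher in that fit. Leaving out 37C replicate 2 or any of the 41C replicates gave 0 of 10, against 0.0823%, 0.247%, 0.0329% and 0.247% of all genes called higher without 37C replicate 2 and 41C replicates 1, 2 and 3. Without 37C replicate 1 it was 1 of 10, against 0.98%.

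The number of the 10 genes called higher also differed between fits with other tools, scalings, filters and corrections, beside which the share of the tested genes called higher is given. It was 3 with the GC correction (2.78%) and 2 with no filter (1.2%). With DESeq2 it was 4 of the 7 that had an adjusted p, beside 5.86% of the 3155 genes kept by its own filter, which left out TEAD4, LATS1 and LATS2. It was 1 with DESeq2 size factors (0.813%), limma-voom (0.78%), a filter at 1 CPM (0.842%) and the length correction (0.63%). It was 0 with upper-quartile scaling (0.473%) and with limma on log2(FPKM + 1) (0.0415%) or log2(FPKM + 0.1) (0.182%).

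**Figure D5:**
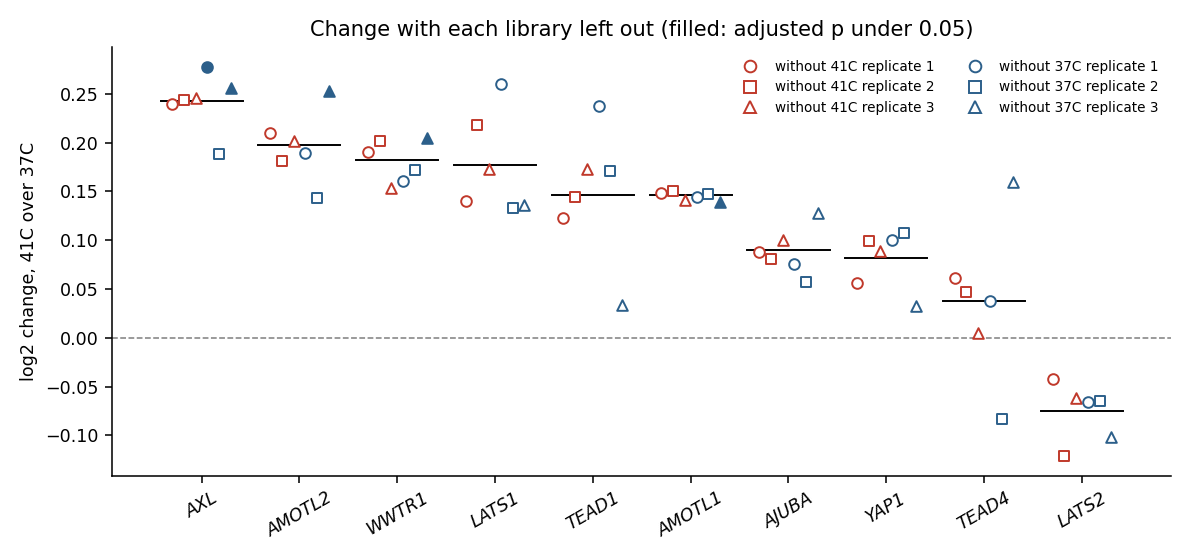
Log2 change of each gene at 41C over 37C with 1 library left out at a time (red, a 41C library; blue, a 37C library) and with all 6 libraries (black lines). Filled points have an adjusted p under 0.05; the spread is narrow for AMOTL1 and wide for TEAD1 and TEAD4.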

How the data were processed

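Poly(A) RNA libraries (TruSeq Stranded mRNA, per the labels' protocols) gave the deposited counts, whole reads per gene symbol and not normalized. The submitters' processing notes name Trimmomatic 0.36, HISAT2 and GRCh38.p13. Which program counted reads, against which gene models and with which strand option, the sources used here do not give. If counting ignored the strand, reads of YAP1, WWTR1, LATS1, AMOTL1 and AXL cannot be told from those of antisense genes that share exon bases with them in GENCODE 29. AMOTL2 and AJUBA share 187 and 50 exon bases with RPL39P5, a pseudogene, and AL132780.3 on the same strand, where no strand option separates reads. The authors' FPKM values equalled the count per kilobase of 1 gene length and per 1000000 counts of the library to within rounding, so they are no independent measurement; they gave gene lengths and levels per length. All per-sample columns were used.

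Counts were tested with edgeR 4.0.16 (R 4.3.3) after filterByExpr (12056 of 15379 genes), TMM scaling and a robust quasi-likelihood fit on 6 libraries, two-sided, with Benjamini-Hochberg adjustment over all genes at a threshold of 0.05. SE is the log2 change over the root of the F statistic. Named genes were the 10 members, and from each list the genes past the threshold or else the 4 with the smallest p-values, with CCN1, CCN2, ANKRD1 and HSPA1A. Alternatives were DESeq2 1.42.0, limma-voom and limma 3.58.1 on log2 FPKM plus 1 or 0.1, other scalings and filters, a replicate block, a length correction, each library left out and, added after the data were seen, a GC correction (97.3% of symbols had a GC content). The fit was also run on simulated data without length trends, with planted changes larger than those of the 10 genes. That run does not show how well changes of their size are found. The members and lists were chosen with earlier results of these data known.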

Additional observations from a re-analysis of the deposited data

How the results depend on the processing

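The number of the 10 genes called higher, 1 as reported, was 4 with DESeq2, 4 with the replicate block (beside 2.46% of all genes), 3 with the GC correction, 2 with no filter, and 0 with upper-quartile scaling or with limma on log2(FPKM + 1) or log2(FPKM + 0.1). Genes called in either direction were 131 in all as reported, 253 among the 3155 kept by DESeq2's own filter, 438 with the block, 445 with the GC correction, 284 with no filter, 5 to 805 with a library left out, 11 and 40 with limma on log2(FPKM + 1) and log2(FPKM + 0.1), and 110 with upper-quartile scaling, which called 57 higher and 53 lower against 99 and 32 as reported. With 1 library left out the number of the 10 ran from 0 to 4. The 4 genes with DESeq2 and with the block were AXL, AMOTL2, WWTR1 and AMOTL1. Core kinases called higher ran from 0 to 1 with a library left out. TEAD partners called higher were 1 with DESeq2, 1 with the block and 2 with the GC correction, and 0 to 1 with a library left out. YAP and TAZ targets called higher were 4 with DESeq2, 2 with no filter, 3 with the block, 3 with the GC correction and 0 to 4 with a library left out, and 1 was lower with the block. Keratinocyte markers called higher, 2 as reported, were 1 with upper-quartile scaling, 5 with DESeq2, 4 with no filter, 4 with the block, 4 with the length correction, 0 with either FPKM fit, 5 with the GC correction and 0 to 5 with a library left out; immune and endothelial markers called lower ran from 0 to 1. Beside these counts, the shares of tested genes called higher were 5.86% with DESeq2, 1.2% with no filter and 2.46% with the block. They were 2.78% with the GC correction, 0.63% with the length correction and 0.473% with upper-quartile scaling. In the FPKM fits they were 0.0415% and 0.182%, and with a library left out 0.0329% to 3.97%. Shares called lower were 1.17% with the block and 0.00823% to 2.65% with a library left out. DESeq2 gave no adjusted p for the targets CCN2, ANKRD1 and TGFB2. The causes were not tested.

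Log2 differences of the paralog ratios with a library left out ran from -0.27 to 0.13 for TEAD4 to TEAD1, from -0.0034 to 0.11 for AMOTL2 to AMOTL1, from 0.06 to 0.17 for WWTR1 to YAP1 and from -0.34 to -0.19 for LATS2 to LATS1. Single genes changed sign only where the value was near 0 and not called: TEAD4 (-0.083 to 0.159 with a library left out), GAS6 (0.0079 with the length correction, -0.060 to 0.014 with a library left out), PROS1 (-0.22 to 0.10 with a library left out), MERTK (-0.015 with upper-quartile scaling, -0.047 with limma-voom, -0.0017 and -0.021 in the FPKM fits, -0.22 to 0.28 with a library left out) and PMEL (0.013 with the length correction, -0.31 to 0.15 with a library left out). Same-numbered libraries deviated from their group means with correlations of 0.08, -0.02 and 0.08, and 41C replicate 2 correlated best with 37C replicate 1, so the numbers were not taken to pair the samples. The exact p of the ratio differences under the replicate block was 0.25 to 0.75. With 3 pairs the smallest p this sign-flip test can give is 0.25, so no ratio could pass 0.05 in it. The 95% interval of the log2 change reached from -0.19 to 0.27 for TEAD4.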
